A study of Mus musculus with 7 samples.

Results

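Pluripotency and progenitor markers were followed here as 10 genes, taken as every probe whose gene name was Pou5f1, Sox2, Nanog, Klf4, Myc, Kit, Nes, Abcg2, Utf1 or Lin28a, out of 34792 gene names on the array. Each of the 10 had 1 probe. The arrays came from a study of cardiac mesenchymal progenitors (CMPs), cells grown out of heart tissue, which asked whether cells from tissue kept after death resemble cells from fresh tissue. Total RNA of 7 mouse samples, 250 ng each, was labelled with Cy3 and measured on single-colour Agilent 8x60K expression arrays.

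The 2 postmortem CMP samples, 1 atrial and 1 ventricular, came from adult C57BL/6 heart tissue left for 24 h at 4 °C after death. The 2 living CMP samples, again 1 atrial and 1 ventricular, came from adult C57BL/6 heart tissue that was not stored. All 4 were grown on collagen I in DMEM/F12 with 10% FBS and 40 ng/ml bFGF. The adult heart was 1 commercial RNA whose strain the labels do not give. The 2 fetal hearts were taken at embryonic day 16.5, 1 from wild-type C57BL/6 and 1 from C57BL/6-Tg(Myh6-EGFP)MG2, in which the alpha myosin heavy chain promoter drives EGFP in heart muscle cells. Chamber or genotype differs within each group of 2 arrays, and nothing says that these came from separate animals. The p-values rest on the spread between the 2 fetal hearts, on how the postmortem difference varies between chambers, and on other genes. That spread may mix genotype, chamber and technical differences, and it is not one between replicate animals.

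Pou5f1, Sox2 and Nanog are transcription factors that hold embryonic stem cells in the pluripotent state, and Pou5f1, Sox2, Klf4 and Myc together can return differentiated cells to it. Lin28a, an RNA-binding protein that blocks maturation of let-7 microRNAs, and Utf1, a chromatin factor of undifferentiated embryonic cells, belong to the same network. Kit (the stem cell factor receptor), Nes (an intermediate filament protein) and Abcg2 (a pump that expels dyes and drugs) have been used to mark progenitor cells in adult tissues, the heart included.

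In CMPs, neither Pou5f1 nor Sox2 was measured well above background. Pou5f1 was below that mark on all 7 arrays, and Sox2 passed it only in wild-type fetal heart. The Nanog probe gave signal everywhere, but it shares a run of bases with 13 probes of other genes, 12 of them on the opposite strand. Klf4 was higher in CMPs than in fetal heart and Myc was higher in CMPs than in adult heart. Nes, Abcg2 and Utf1 were lower in CMPs than in fetal heart. Kit was lower there too, but it entered that test through fetal heart alone, where it was high. No member passed the test between postmortem and living CMPs, although Kit differed in opposite directions in the atrial and ventricular pairs.

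The differences were tested with limma, a linear model fitted across all genes, and a gene was called where its adjusted p was under 0.05. The 8 members tested are those that passed the filter on dim probes, and the comparisons share arrays. Between postmortem and living CMPs 0 of 8 were called, beside 0.105% of 19007 genes, and 2 had an unadjusted p under 0.05, as did 2085 of those genes. Between ventricular and atrial CMPs 0 of 8 were called, beside 0.0106% of 18906 genes, and 2 had an unadjusted p under 0.05, as did 1557 of those genes.

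In CMPs against fetal heart, 1 of 8 was higher (Klf4) and 4 were lower (Nes, Abcg2, Utf1 and Kit). Kit had passed the filter there through fetal heart alone, being dim on the postmortem atrial array. Of 20044 genes tested there, 22.3% were higher, 25.3% were lower and 47.7% were called in all. In CMPs against adult heart, 1 was higher (Myc) and 3 were lower (Utf1, Nes and Nanog), among 20270 genes of which 23.3% were higher, 25.4% lower and 48.7% called in all. In adult against fetal heart, 1 was higher (Klf4) and 2 were lower (Myc and Nes), among 20936 genes of which 19.2% were higher, 17.2% lower and 36.3% called in all. With 8 members tested, these counts are too small to be set apart from the shares of all genes, and the difference from them was not tested.

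**Figure D1:**
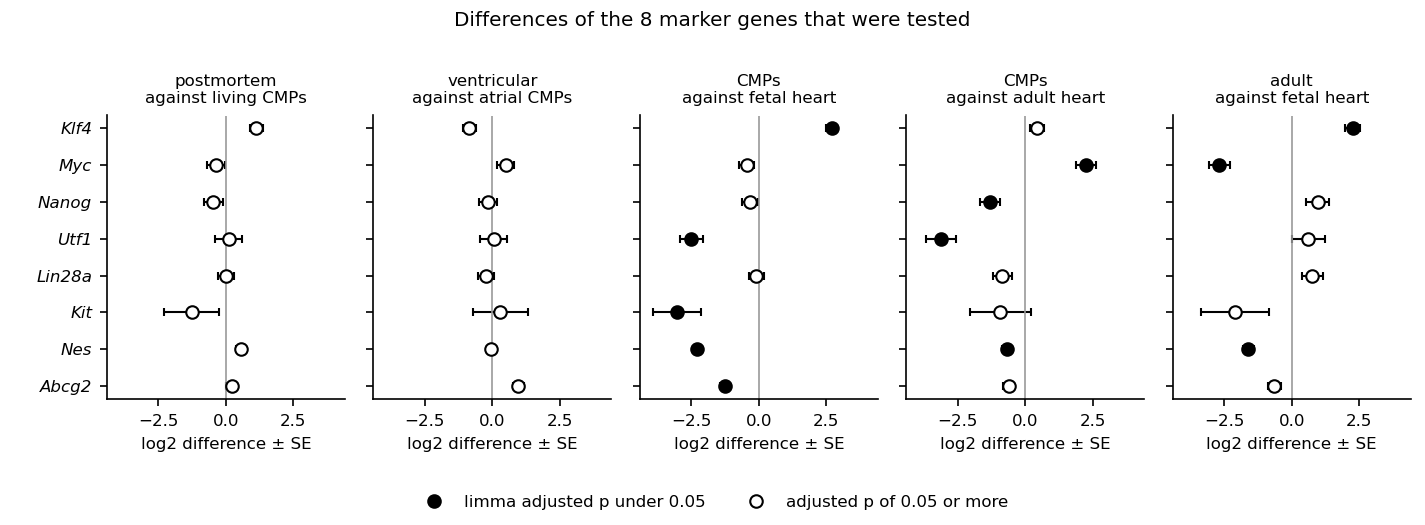
Log2 difference with its standard error for the 8 members tested in each of 5 comparisons, with the first-named group minus the second; filled points had a limma adjusted p under 0.05. Klf4 against fetal heart is 2.69 in CMPs and 2.25 in adult heart, and no point is filled in the first 2 panels.

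The label of each sample kind was checked on marker genes. All 10 mesenchymal stromal markers passed the background mark on all 7 arrays, so passing it does not set CMPs apart. Their summed signal, in units of the array's 75th percentile, was 1350 to 1790 in CMPs and 376 to 521 in hearts. The brightest markers weigh most in such a sum. Against adult heart Nt5e was lower in CMPs (-1.85 ± 0.3), and Dcn (-0.96 ± 0.53) and Lum (-0.32 ± 0.55) were not higher. The summed signal of 12 cardiomyocyte markers was 1.24 to 14.4 in CMPs and 2850 to 7860 in hearts. Of these, Tnnt2 passed the background mark on all 4 CMP arrays, at a mean level (log2) of 2.48, against 9.73 in adult and 8.38 in fetal heart. The share of probes that passed this mark ran from 46.5% to 52.5% over the arrays, and 0 spots were saturated. All 7 arrays were on 1 slide and in 1 scan, with CMPs in row 1 and hearts in row 2, so row and sample kind cannot be told apart. In whole tissue, fewer cells of a type and less RNA per cell cannot be told apart either.

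Stretches of 2 probes are shown because they bear on what the signals can be read as. Capitals mark the run shared with a probe of another gene, namely Zfp872 for Nanog and Gm5712 for Pou5f1. The Nanog stretch lies at chr6:122663676-122663705 and the Pou5f1 probe at chr17:35647280-35647340, both on the plus strand of mm9, the build in the file headers.
Nanog: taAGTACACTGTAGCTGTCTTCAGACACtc
Pou5f1: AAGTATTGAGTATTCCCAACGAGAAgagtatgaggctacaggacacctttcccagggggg
The shared run was 26 bases for Nanog and 25 bases for Pou5f1. A run of at least 20 bases shared with another gene's probe, on either strand, was found for 14.6% of the 55681 probes and for 2 of the 10 members. RefSeq also lists 5 Pou5f1-related and 2 Nanog-related pseudogenes, whose transcripts the probes may not tell apart from the genes.

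Stretches of 4 further probes are shown because they hold the letters of a stop codon or of a polyadenylation signal, which bears on the part of the transcript a probe reads. For Myc (chr15:61821417-61821463, plus strand) capitals mark the stop codon. For Nes (chr3:87784333-87784362, plus strand), Utf1 (chr7:147130975-147131004, plus strand) and Lin28a (chr4:133559262-133559291, minus strand) they mark AATAAA, the letters of the common polyadenylation signal.
Myc: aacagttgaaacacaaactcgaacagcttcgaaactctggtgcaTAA
Nes: ctctcttcctcccttgAATAAAgctgtatc
Utf1: ggttcttaccaaAATAAAgattgtgttttc
Lin28a: cttccctgggaaAATAAAgacttattggta
AATAAA was searched on the strand of the probe only, with no other motif, and 10.1% of all probes held it, so the letters alone do not show the end of a transcript. The other 4 probes were at chr3:34550773-34550832 (Sox2, plus strand), chr4:55540167-55540226 (Klf4, minus strand), chr5:76052394-76052453 (Kit, plus strand) and chr6:58642312-58642371 (Abcg2, plus strand).

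**Figure D2:**
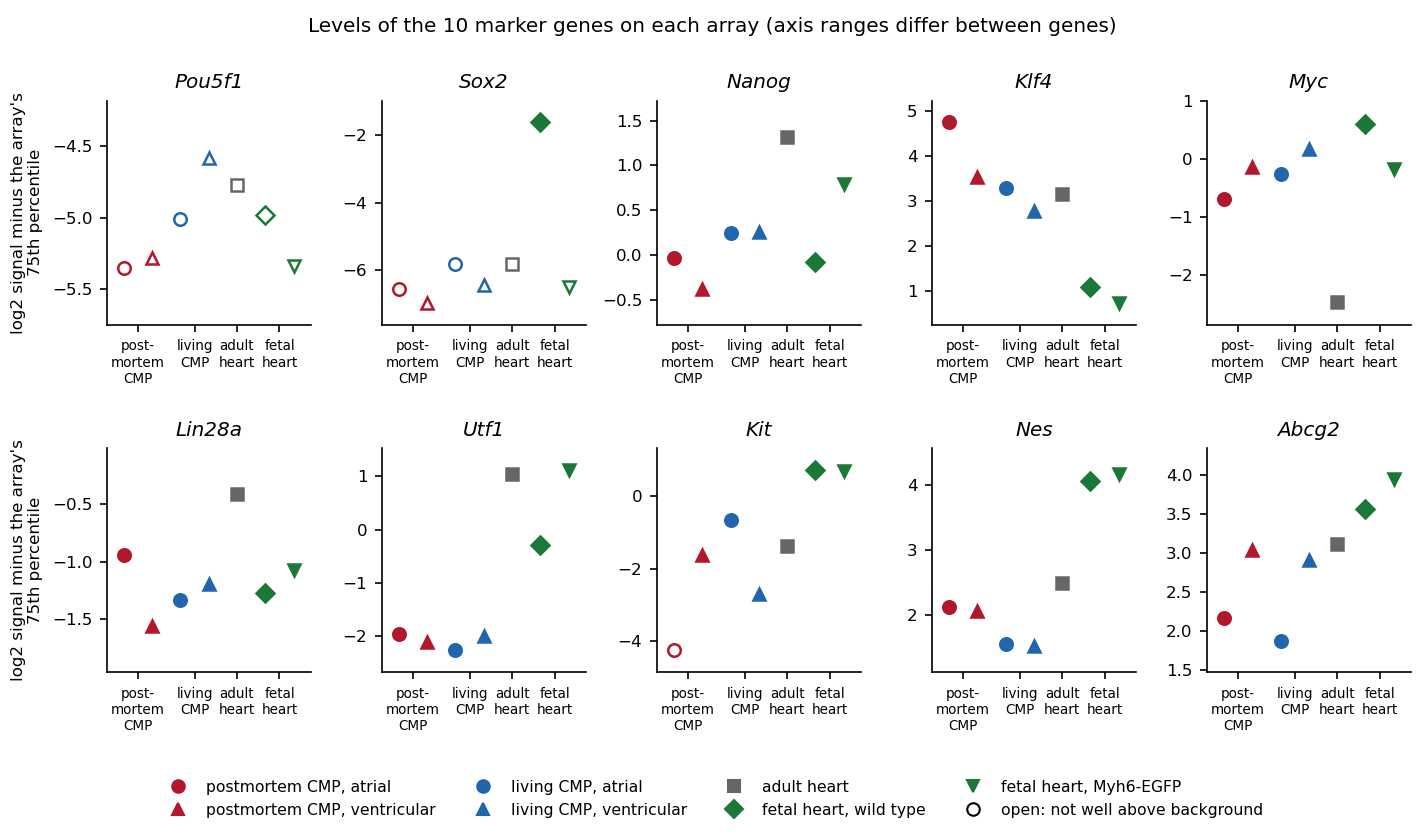
Level of each of the 10 genes on each of the 7 arrays, as log2 signal minus the array's 75th percentile, with open symbols where the probe was not well above background. Pou5f1 is open on all 7 arrays, Sox2 on all but wild-type fetal heart, and Kit on the postmortem atrial array; Klf4 lies between 2.78 and 4.75 in CMPs, above both fetal hearts.

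Levels are given as the log2 signal minus the 75th percentile of the array, so that 0 is the brightness of the 75th percentile probe. They compare arrays for 1 probe, not 1 gene with another. Pou5f1, the octamer-binding factor Oct4, had levels of -5.35 and -5.28 in postmortem CMPs, -5.01 and -4.58 in living CMPs (atrial before ventricular), -4.77 in adult heart, and -4.98 and -5.34 in wild-type and Myh6-EGFP fetal heart. None of these values was well above background, so their order carries no information and no difference was tested. The Gm5712 probe that shares bases with it was likewise dim on every array.

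Sox2, the partner of Pou5f1 on DNA, was at -6.57 and -6.98 in postmortem CMPs, -5.83 and -6.45 in living CMPs, -5.83 in adult heart, -1.63 in wild-type fetal heart and -6.49 in Myh6-EGFP fetal heart. The 6 arrays other than wild-type fetal heart were not well above background, and wild-type fetal heart was at least 4.01-fold above each of them, a bound set by the dimmest signal detectable on each array. Because 1 of the 2 fetal arrays was dim, Sox2 did not pass the filter in any comparison of all 7 arrays. Without Myh6-EGFP fetal heart it entered the test through the wild-type array alone, the only array where it was bright. That it was called lower in CMPs and in adult heart there followed from that choice and adds nothing to the levels. With no filter and both fetal arrays Sox2 did not pass the limma test (adjusted p = 0.189 and 0.447). It was 1 of 776 genes that were well above background on the wild-type fetal array alone, and the 42nd by level among them.

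The brightest of these 776 genes, looked up after the Sox2 values were seen, were Sftpc, which encodes surfactant protein C (3.04), Foxa1, a factor of endodermal epithelia (2.30), Fam162b (1.23) and Serpina6, which encodes a steroid-binding globulin (1.14). Sftpb, which encodes surfactant protein B, and Nkx2-1, a lung and thyroid factor, were at -0.12 and -0.15. Adult heart had 644 genes of its own, with the pancreatic enzyme genes Amy2a5 (4.52), Try5 (4.04), Try4 (3.84) and Cela3b (1.53) among the 12 brightest. Both arrays stand for heart in the comparisons below, and the part of such genes in the Sox2 signal or in any comparison was not tested. Without the wild-type fetal array, 1 member was higher and 3 were lower in CMPs than in fetal heart (Kit lost its call). The 2 fetal arrays differed by at least 2-fold at 14.0% of 21850 genes well above background in either.

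**Figure D3:**
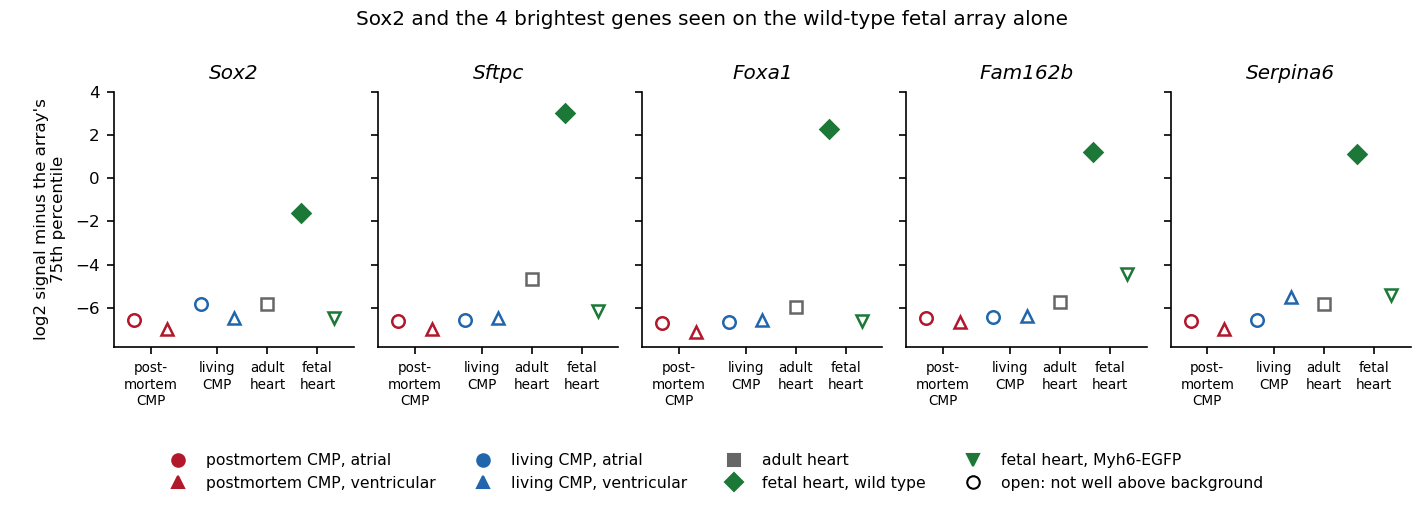
Levels of Sox2 and of the 4 brightest genes that were well above background on the wild-type fetal array alone, as log2 signal minus the array's 75th percentile, with open symbols where the probe was not well above background. That all 5 are filled in wild-type fetal heart and open on the other 6 arrays follows from how they were chosen; Sox2, at -1.63 there, is the dimmest of the 5.

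The Nanog probe, for a homeobox factor of the early embryo, was at -0.04 and -0.38 in postmortem CMPs, 0.24 and 0.26 in living CMPs, 1.32 in adult heart, and -0.08 and 0.79 in wild-type and Myh6-EGFP fetal heart. Adult heart was highest, and CMPs overlapped with fetal heart. CMPs were lower than adult heart by a log2 difference of -1.30 ± 0.38 (SE, 4 arrays against 1, limma adjusted p = 0.0363), a call lost with quantile normalization (adjusted p = 0.0533) and without a variance trend (adjusted p = 0.0583). Adult heart exceeded fetal heart by 0.96 ± 0.42, which did not pass (adjusted p = 0.123) but did without any 1 CMP array (adjusted p = 0.042 to 0.0456) or without Myh6-EGFP fetal heart (adjusted p = 0.0395). A fit without 1 CMP or fetal array has 1 residual degree of freedom. The lone adult array was assumed to vary like the others.

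Probes that share bases with the Nanog probe followed it over the arrays to unlike degrees. The Zfp872 probe, with the shared run on the same strand, differed from it by 0.238 log2 units (root mean square over 7 arrays, each probe centred on its own mean), and 0.58% of 16023 genes well above background on all 7 arrays lay closer to Nanog. Another 12 probes of other genes hold 21 to 37 of its bases in a row on the opposite strand, and differed from it by 0.33 to 0.448. The levels of these 12 ran from 6.59 to 9.31, against -0.38 to 1.32 for Nanog and -4.89 to -2.70 for Zfp872. Whether the shared bases are a repeated sequence was not checked. Nanog itself spread by 0.534 about its mean, and 4.14% to 14.4% of the 16023 genes lay closer than these 12. They did not share the low value of Nanog on the postmortem ventricular array (-0.68 from its mean, against -0.11 to 0.08) or its high value in Myh6-EGFP fetal heart (0.49, against -0.11 to 0.05), whereas the Zfp872 probe had both (-1.07 and 0.55), the first of them not well above background. A further probe, named Nanogpd and listing the accession of Nanog, shares no run of more than 6 bases with it and was dim on all 7 arrays. How much of the Nanog signal came from Nanog transcripts was not tested.

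**Figure D4:**
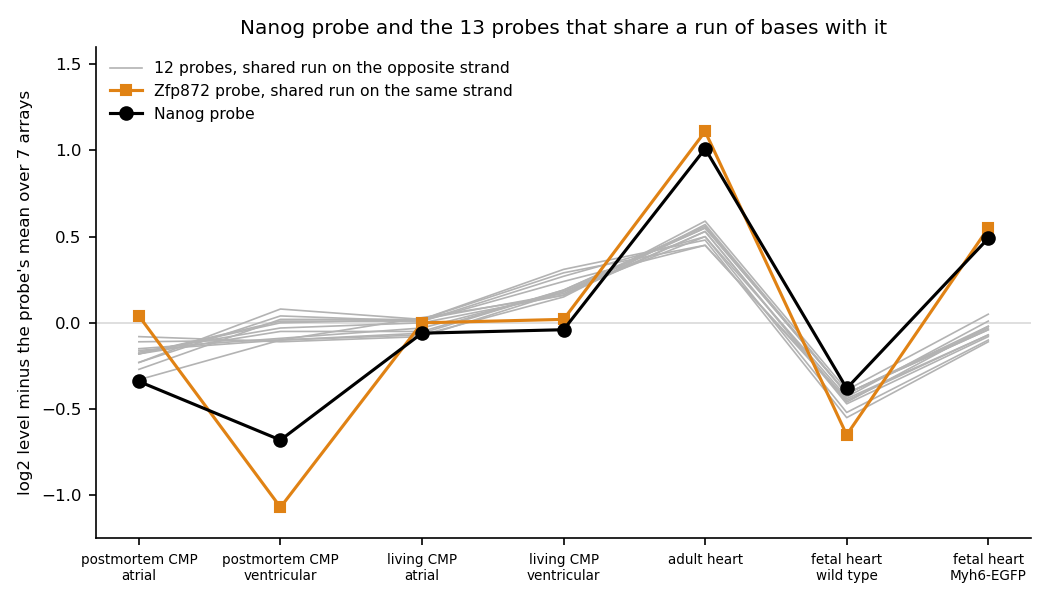
Level of the Nanog probe (black), the Zfp872 probe (orange) and 12 probes that share bases with it on the opposite strand (grey), each as log2 level minus its own mean over 7 arrays; lines join values of 1 probe. Adult heart is the highest array for all 14 probes, at 1.01 for Nanog and 1.11 for Zfp872, as it is for 27.7% of genes well above background on all 7 arrays; the grey probes lack the dip of the other 2 on the postmortem ventricular array.

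Klf4, a zinc finger factor of epithelia, vessels and stem cells, was at 4.75 and 3.54 in postmortem CMPs, 3.29 and 2.78 in living CMPs, 3.15 in adult heart, and 1.07 and 0.72 in fetal heart. Each CMP array and adult heart lay above both fetal hearts. The log2 difference was 2.69 ± 0.21 for CMPs against fetal heart (SE, 4 arrays against 2, limma adjusted p = 4.67e-04) and 2.25 ± 0.29 for adult against fetal heart (1 array against 2, adjusted p = 0.00442). Both differences passed the test in all 12 other settings and with each array left out that the comparison did not need (the lone adult heart stayed in for the second).

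Within CMPs, Klf4 was highest on the postmortem atrial array, and both postmortem values lay above both living ones. The log2 difference of 1.12 ± 0.24 did not pass the limma test over all genes (adjusted p = 0.249, unadjusted p = 0.00419), nor did that of -0.86 ± 0.24 for ventricular against atrial CMPs (adjusted p = 0.445). The postmortem difference was 1.46 and passed once either ventricular array, postmortem or living, was left out (adjusted p = 0.00308 and 0.00314), and without the living atrial or the living ventricular array the chamber difference was -1.20 and passed (adjusted p = 0.0246 and 0.0283). Such a fit compares 1 array with 1 array, of the pair that is left, with its spread from the fetal pair and the other genes. The range over the 4 CMP arrays, 1.97 log2 units, exceeded that of 94.0% of 17510 genes well above background on all 4.

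Myc, a growth-promoting factor, was at -0.68 and -0.13 in postmortem CMPs, -0.26 and 0.18 in living CMPs, -2.45 in adult heart, and 0.61 and -0.16 in fetal heart. Adult heart stood apart below the other 6 arrays, and both spots of its probe read -2.45 there. CMPs were higher than adult heart by 2.23 ± 0.37 (log2, 4 arrays against 1, limma adjusted p = 0.00535), and adult heart was lower than fetal heart by -2.68 ± 0.40 (adjusted p = 0.0066). With normexp background correction these differences shrank to 1.33 and -1.72 and kept their calls. CMPs against fetal heart, at -0.45 ± 0.29, did not pass (adjusted p = 0.253).

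Utf1 was at -1.95 and -2.11 in postmortem CMPs, -2.26 and -2.0 in living CMPs, 1.03 in adult heart, and -0.28 and 1.12 in fetal heart. The 4 CMP arrays lay within 0.31 log2 units of each other, below all 3 hearts. The log2 difference was -2.50 ± 0.43 for CMPs against fetal heart (limma adjusted p = 0.006) and -3.11 ± 0.56 for CMPs against adult heart (adjusted p = 0.00694). The 2 fetal hearts differed by 1.41 units, and without wild-type or Myh6-EGFP fetal heart the first difference was -3.20 or -1.79, past the threshold each time.

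Lin28a was at -0.94 and -1.56 in postmortem CMPs, -1.33 and -1.19 in living CMPs, -0.41 in adult heart, and -1.27 and -1.07 in fetal heart. The CMP and fetal arrays overlapped, and adult heart was highest. No comparison of Lin28a passed the limma test, and the lowest adjusted p was 0.0961, for CMPs against adult heart at a log2 difference of -0.85 ± 0.35. The probe was well above background on all 7 arrays.

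Nes was at 2.13 and 2.07 in postmortem CMPs, 1.56 and 1.53 in living CMPs, 2.49 in adult heart, and 4.05 and 4.16 in fetal heart. The groups did not overlap, and fetal heart was highest. The log2 difference was -2.28 ± 0.14 for CMPs against fetal heart (limma adjusted p = 2.71e-04) and -1.61 ± 0.20 for adult against fetal heart (adjusted p = 0.00398). Against adult heart the CMP difference of -0.67 ± 0.19 (adjusted p = 0.0294) lost its call when any 1 of the 4 CMP arrays was left out (adjusted p = 0.0834 to 0.0882) and without a variance trend (adjusted p = 0.0723). Postmortem CMPs exceeded living CMPs by 0.56 ± 0.17, which did not pass (adjusted p = 0.346).

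Abcg2 was at 2.17 and 3.04 in postmortem CMPs, 1.87 and 2.91 in living CMPs, 3.12 in adult heart, and 3.57 and 3.95 in fetal heart. Both ventricular CMP arrays lay above both atrial ones, and all 4 lay below the hearts. CMPs were lower than fetal heart by a log2 difference of -1.26 ± 0.17 (limma adjusted p = 0.00263). The difference of 0.96 ± 0.20 for ventricular against atrial CMPs did not pass (adjusted p = 0.284), nor did that of -0.62 ± 0.22 for CMPs against adult heart (adjusted p = 0.0646). The last passed under quantile normalization (adjusted p = 0.0322) and with the percentile taken over probes detected on all arrays (adjusted p = 0.0235), with those 5 arrays alone (adjusted p = 0.0441) and without wild-type or Myh6-EGFP fetal heart (adjusted p = 0.0416 and 0.0419).

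Kit was at -4.25 and -1.62 in postmortem CMPs, -0.65 and -2.69 in living CMPs, -1.38 in adult heart, and 0.73 and 0.68 in fetal heart. The atrial arrays held both the highest and the lowest CMP value, and only 1 of 2 spots was well above background on the postmortem atrial array, which was counted as dim. CMPs lay below fetal heart, by a log2 difference of -3.01 ± 0.89 (limma adjusted p = 0.037). Kit passed the filter there through fetal heart alone, the side where it was high. The size of the difference rests partly on the dim postmortem atrial value, so the call is weak support. That call was lost without a variance trend (adjusted p = 0.0621) and without wild-type or Myh6-EGFP fetal heart (adjusted p = 0.175 and 0.167), and the difference was -1.84 without the postmortem atrial or the living ventricular array. Against adult heart, the CMP difference of -0.92 ± 1.14 did not pass the limma test (adjusted p = 0.536), and was -2.09 without the postmortem ventricular or the living atrial array. Adult against fetal heart, at -2.09 ± 1.25, did not pass either (adjusted p = 0.234). Without any 1 CMP array, the spread of Kit itself is that of the fetal pair alone, which read 0.73 and 0.68. Calls of Kit in such fits rest on that closeness and on other genes.

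The postmortem difference of Kit was -3.60 in the atrial pair and 1.07 in the ventricular pair. With the postmortem atrial array counted as dim, the first is a bound with this background correction (at least 12.1-fold lower), its level there being above the dimmest detectable signal of that array, and the sizes below that use this array are bounds too. Ventricular minus atrial was 2.63 in postmortem and -2.04 in living CMPs. The difference between the pairs, -4.68 ± 0.86 (log2), passed the limma interaction test (adjusted p = 1.01e-05), as did 2.31% of 19007 genes, while 0 of the other 7 members tested passed. The spread of Kit itself has 1 degree of freedom there, that of the 2 fetal arrays, so the SE and p-value come largely from the spread of other genes. Each chamber and source is 1 array. Far fewer of all genes passed this test with quantile normalization than without it, so its calls depend on the normalization. With quantile normalization the value was -4.55 (adjusted p = 0.0986) and with normexp background correction -2.50 (adjusted p = 0.0168). The range of Kit over the 4 CMP arrays, 3.60 units, exceeded that of 95.5% of the 21817 genes detected on at least 1 of them.

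Kit is made by mast cells, melanocytes and some endothelial and blood progenitor cells, so markers of such cells were read on the same arrays. Of 8 endothelial markers well above background on all 4 CMP arrays, 6 (Pecam1, Cdh5, Tie1, Emcn, Esam and Vwf) lay in the order of Kit, beside 2.23% of 17510 genes, with living atrial highest, then postmortem ventricular, living ventricular and postmortem atrial. Kdr (2.89 and 2.45 in postmortem, 3.09 and 3.18 in living CMPs) and Cldn5, of the same 8, did not lie in that order. The part of endothelial genes in the Kit result was not tested. Cdh5, the adhesion protein of endothelial junctions, was at -1.51 and 0.90 in postmortem CMPs, 1.59 and -0.01 in living CMPs, 2.34 in adult heart, and 2.72 and 3.27 in fetal heart. The summed endothelial signal was 8.54 to 16.3 in CMPs, lowest on the postmortem atrial and highest on the living atrial array, and 40.5 to 59.2 in hearts.

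Of 9 mast cell markers, 3 were well above background on all 4 CMP arrays, and none of these was in the order of Kit. Mcpt4, which encodes a mast cell chymase, was at -1.66 and 0.69 in postmortem CMPs, 0.01 and -1.99 in living CMPs, -0.07 in adult heart, and -2.94 and -1.81 in fetal heart. Tpsb2, a tryptase gene, averaged -2.38 in CMPs, and Gata2, a factor that blood progenitors and endothelium also use, averaged -0.97. Hdc passed on 1 CMP array, and the other 5 (Cpa3, Cma1, Tpsab1, Fcer1a and Ms4a2) on none, so their order cannot be set beside that of Kit. The summed mast cell signal was 1.29 and 2.39 in postmortem CMPs, 1.67 and 1.08 in living CMPs, 4.56 in adult heart, and 2.22 and 2.62 in fetal heart. Of 6 melanocyte markers, Mitf (0.96 on average), Tyr (-3.09), Mlana (-2.07) and Pmel (-2.34) were well above background on all 4 CMP arrays, none of them in the order of Kit, whereas Dct passed in the hearts alone and Tyrp1 on no array. The melanocyte sum was 2.0 to 3.21 in CMPs and 6.29 to 24.7 in hearts.

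**Figure D5:**
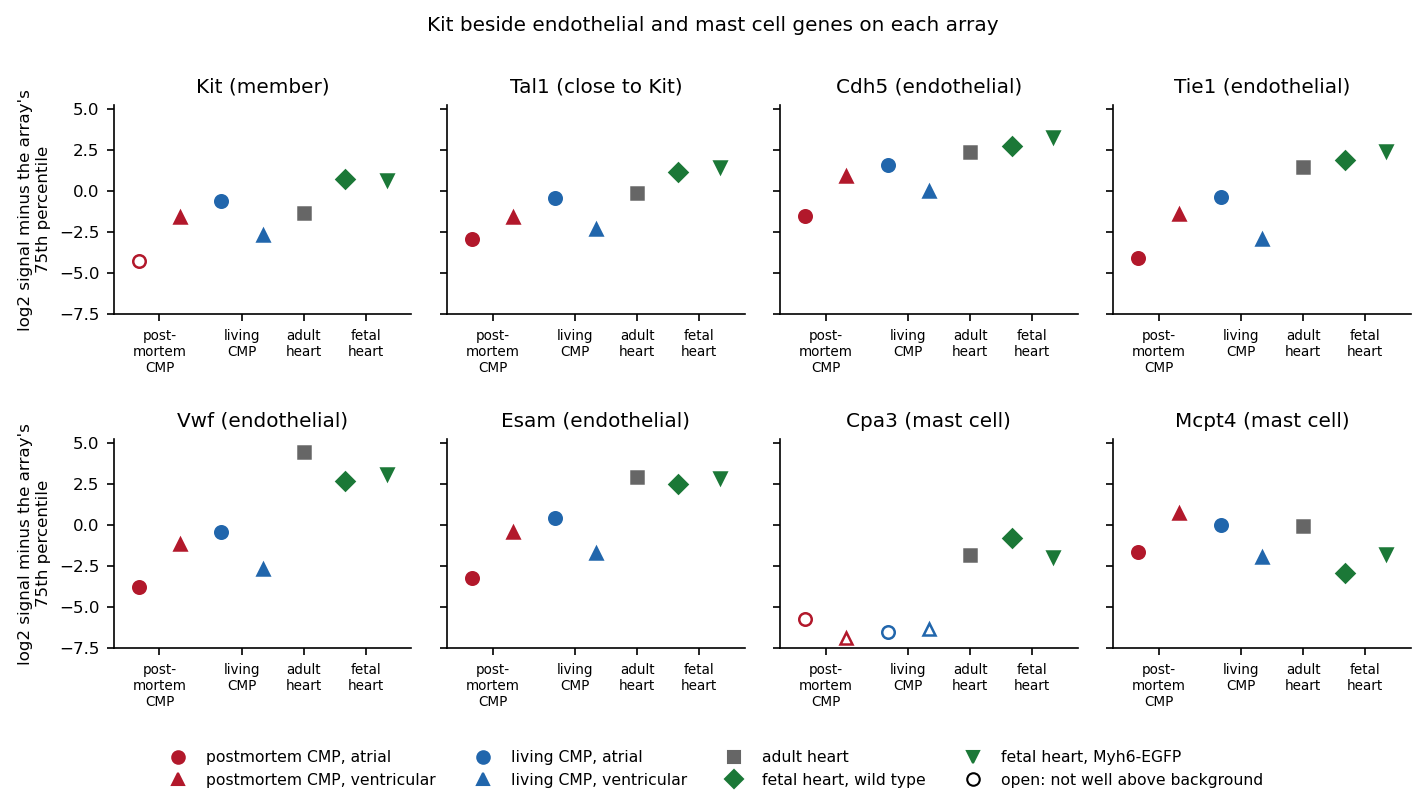
Levels of Kit, Tal1, 4 endothelial markers and 2 mast cell markers on the 7 arrays, as log2 signal minus the array's 75th percentile, with open symbols where the probe was not well above background. Living atrial is the highest and postmortem atrial the lowest CMP array for Kit, Tal1, Cdh5, Tie1, Vwf and Esam. Tal1, among the genes closest to Kit, and the 4 endothelial markers, among the 6 in its order, follow it by choice. Kdr and Cldn5, not shown, do not lie in that order. Mcpt4 is filled and Cpa3 open on all 4 CMP arrays.

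The genes whose levels followed each member most closely were found by the root mean square difference of centred log2 levels over the 7 arrays. Kit was followed by Shroom2 (0.46), Tal1 (0.47), a factor of blood and endothelial cells, and Cdh5 (0.506). Klf4 was followed by Pdxk (0.219), Aldh2 (0.241) and Hyal1 (0.255), and Nes by Pmf1 (0.119) and Rfc4 (0.137). Myc was followed by Tex9 (0.21), Abcg2 by Susd2 (0.2), Utf1 by Selplg (0.155), Nanog by Insr (0.12) and Lin28a by Ttc1 (0.0622). Candidates had to be well above background on every array where the member was, which left 16287 genes for Kit and 16023 for the others. With 7 arrays many genes can lie this close.

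Wider lists place the members among their pathways. Of 26 further genes of the pluripotency network, 5 were well above background on no array (Zfp42, Dppa3, Dppa4, Nr0b1 and Prdm14) and 8 on all 7. A list gene that passed the filter through 1 side alone is dim on part of the other, so counts are also given for genes well above background throughout both sides. Against fetal heart, 22.3% of all genes tested were higher in CMPs and 25.3% were lower, and 12.6% had passed through fetal heart alone. Of the 16830 well above background on both sides, 23.7% were higher and 20.3% lower, with a median log2 difference of 0.06. In the network, 2 of 16 tested were higher and 8 lower, 6 of the 16 through fetal heart alone, and of the 9 on both sides 1 was higher and 3 lower, with a median of 0.35. The higher ones were Lefty1, a Nodal antagonist (3.63 ± 0.32, limma adjusted p = 0.000655), and Dnmt3l, a cofactor of DNA methylation (adjusted p = 0.00257). Dnmt3l was well above background on 1 of the 2 fetal arrays and passed the filter through CMPs alone, so no exact difference is given for it. Among the lower ones were Dnmt3b, a DNA methyltransferase (-3.55 ± 0.31), and Esrrb, a nuclear receptor that was well above background on 1 of the 4 CMP arrays, so that no exact difference is given (adjusted p = 0.000732).

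Esrrb averaged 3.46 in adult heart and 1.18 in fetal heart. Against adult heart, 2 of 14 network genes tested were higher in CMPs and 7 were lower, beside 23.3% and 25.4% of all genes; of the 9 on both sides 2 were higher and 3 lower, beside 24.5% and 19.1%. Dnmt3l was at -2.32 and 0.55 in postmortem CMPs and 0.97 and 1.95 in living CMPs, so it varied widely among cultures. Lefty1 was at 1.63 and 0.60 in postmortem CMPs, 0.54 and 0.81 in living CMPs, -1.27 in adult heart, and -2.80 and -2.66 in fetal heart, so that all CMPs lay above all hearts.

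The LIN28 and let-7 axis (proteins that bind, tail or cut let-7 precursors, and genes that let-7 represses) was lower in CMPs at 10 of 13 genes tested against fetal heart and higher at 1, beside 25.3% and 22.3% of all genes. Of the 10 on both sides, 8 were lower and 1 was higher, with a median of -1.37. Lin28b, the paralogue of Lin28a, was not well above background in any CMP and was at least 11.6-fold lower than in fetal heart (limma adjusted p = 0.000375), a bound set by the dimmest detectable signal. The oncofetal RNA-binding genes Igf2bp3 (-4.24 ± 0.26) and Igf2bp1 (adjusted p = 0.000152) were also lower, the second well above background on 1 of the 4 CMP arrays. Against adult heart 3 of 10 were higher in CMPs and 0 lower, beside 23.3% and 25.4% of all genes. Of the 8 on both sides 1 was higher and 0 lower, beside 24.5% and 19.1%. Hmga2, a chromatin protein repressed by let-7, was at least 28.1-fold higher in CMPs than in adult heart (adjusted p = 0.00124), and Igf2bp2 was higher by 3.23 ± 0.26.

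MYC-responsive genes (ribosome biogenesis, metabolism and cell cycle) were lower in CMPs than in fetal heart at 12 of 16 and higher at 1, Ccnd2 (1.07 ± 0.18), beside 25.3% and 22.3% of all genes. Of the 15 on both sides, 11 were lower and 1 was higher, with a median of -0.85, although Myc itself did not pass there. Tfrc, the transferrin receptor, was lower by -2.79 ± 0.22 and Fbl, the nucleolar methyltransferase fibrillarin, by -1.85 ± 0.14. Against adult heart 6 of 15 were higher in CMPs, beside 23.3% of all genes, among them Cdk4 (1.54 ± 0.19) and Srm (1.53 ± 0.27), and 3 were lower, including Tfrc (-5.45 ± 0.28). Of 12 MYC partners tested against fetal heart, 3 were higher in CMPs and 2 were lower, near the shares of all genes. Mxd4, an antagonist of MYC, was higher by 1.87 ± 0.17, and Mycn, the MYC relative of embryonic tissues, was lower by -3.01 ± 0.54.

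In the KLF family, 6 of 14 tested were higher in CMPs than in fetal heart and 4 were lower, beside 22.3% and 25.3% of all genes; of the 11 on both sides 6 were higher and 1 lower, with a median of 0.56. Klf9 was higher by 4.08 ± 0.18 and Klf5 was lower by -2.60 ± 0.36. In the SOX family 2 of 13 were higher and 6 were lower, beside the same shares, but 4 of the 13 had passed through fetal heart alone. Of the 9 on both sides, 2 were higher and 2 lower, near the 23.7% and 20.3% of all genes, with a median of -0.52. Sox9, a factor of cartilage and valve mesenchyme, was higher by 1.80 ± 0.35, whereas Sox11 and Sox3, not well above background in any CMP, were at least 77.1-fold and 65.0-fold lower. In the POU family 1 of 4 tested was higher and 2 were lower, and 1 of the 4 had passed through fetal heart alone. These are too few to set beside the shares of all genes.

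For Kit, 15 genes of its ligand, relatives and signalling were read, and 7 of 14 tested were higher in CMPs than in fetal heart while 2 were lower, beside 22.3% and 25.3% of all genes. Of the 13 on both sides, 7 were higher and 2 lower, with a median of 0.66. Kitl, which encodes the ligand of Kit and was named here for that role, averaged 1.01 in CMPs, 0.65 in adult heart and -0.77 in fetal heart, and was higher in CMPs than in fetal heart by 1.78 ± 0.19 (limma adjusted p = 0.00113). Pdgfrb, a receptor of the same class on mesenchymal cells, was higher by 2.94 ± 0.23. Csf1r, the macrophage member of the class, was lower by -2.04 ± 0.17.

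Beside Abcg2, 6 of 9 other ABC transporters tested were higher in CMPs than in fetal heart and 0 were lower. The shares of all genes were 22.3% and 25.3%, and Abcg2 itself was lower. Of the 7 on both sides, 5 were higher, with a median of 1.23. Abcc1 was higher by 3.93 ± 0.33 and Abcb4 by 2.63 ± 0.42. Against adult heart Abcc1 was also higher in CMPs (2.73 ± 0.43), whereas Abcb4 was lower (-3.09 ± 0.54). Beside Nes, 3 of 11 intermediate filament genes tested were higher in CMPs than in fetal heart (Sync, Lmna and Vim) and 7 were lower. The shares of all genes were again 22.3% and 25.3%, and 4 of the 11 had passed through fetal heart alone. Of the 7 on both sides, 3 were higher and 3 lower, with a median of -0.18. Des, the muscle filament desmin, and Krt8, an epithelial keratin, were not well above background in any CMP and were at least 193-fold and 161-fold lower.

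Of 16 other tissue progenitor markers, 7 of 15 tested were higher in CMPs than in fetal heart and 3 were lower, beside 22.3% and 25.3% of all genes; of the 10 on both sides 6 were higher and 0 lower, with a median of 0.89. Ly6a, which encodes Sca-1, was higher by 9.43 ± 0.37 and Aldh1a1, a retinaldehyde dehydrogenase, by 6.29 ± 0.39. Wt1 and Prom1 were not well above background in any CMP and were at least 184-fold and 80.9-fold lower, and Isl1, a factor of early heart progenitors, was at least 2.55-fold lower. Between postmortem and living CMPs, and between ventricular and atrial CMPs, 0 genes passed in any of these 11 lists. Cd34, a surface marker of stromal and vessel progenitors, was not called and averaged 7.04 in postmortem and 5.55 in living CMPs (1.49 ± 0.28, adjusted p = 0.213).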

How the data were processed

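Signals were extracted with Agilent Feature Extraction, of version 10.7.3.1 in the file headers but 9.5.3 in the submitters' processing notes. The deposited intensity values (processed signal, background-subtracted per the file headers) were used. The deposited table of log2 values equals log2 of these minus a constant per array (within 0.001 for 100% of probes), with column medians from -4.25 to -3.60. Here log2 of the deposited intensity minus the array's 75th percentile was taken. Spots with outlier flags were left out of a probe's mean, which dropped 11 probes. A gene was read from its probe with the highest mean.

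Differences were tested with limma 3.58.1 (R 4.3.3; lmFit, eBayes with a trend) on all 7 arrays, with group and CMP chamber as terms and 2 residual degrees of freedom, among genes whose probe passed the scanner's background flag throughout 1 side or both, with two-sided p-values adjusted by Benjamini-Hochberg over all genes and a threshold of 0.05. The code was tested on simulated data. Where a group is dim, "at least" bounds use the dimmest well-detected signal of each array. The number of arrays limits the precision. Genes named beyond the members were, per list and comparison, at most 3 called in each direction and 2 uncalled, by size of difference, and the 3 genes most like each member; other names are marked. The 10 members and all lists were chosen with earlier results of these data known. Alternatives covered scaling, background correction, filters, priors, covariates and single arrays. Probe-level fits gave nothing further, since each member has 1 probe. RefSeq names gave the pseudogenes.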

Additional observations from a re-analysis of the deposited data

Results flagged for a closer look

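Kit was singled out because its postmortem difference ran in opposite directions in the 2 chambers and the difference between them passed the limma interaction test. The atrial pair gave -3.60 and the ventricular pair 1.07 (log2, postmortem minus living), so that the atrial minus ventricular value was -4.68 (adjusted p = 1.01e-05). The postmortem atrial value counts as dim, so the atrial difference is a lower bound in size. Each of the 4 values is 1 array, and the spread was taken from the fetal pair and, largely, the other genes. The difference did not pass with quantile normalization, where far fewer of all genes passed too. No member had a CMP array set far enough from the other 3 to be singled out by Dixon's test.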

How the results depend on the processing

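Leaving out 1 array moved the number of members called from 0 to 2 for postmortem against living CMPs, 0 to 2 for ventricular against atrial CMPs, 4 to 5 for CMPs against fetal heart, 3 to 5 for CMPs against adult heart and 3 to 5 for adult against fetal heart. Without either ventricular array, Klf4 (1.46) and Kit (-3.60) passed between postmortem and living CMPs, where the fit called 1695 and 1552 genes on 1 residual degree of freedom. Other settings gave 2 members called for CMPs against adult heart without a trend, 5 for adult against fetal heart with those arrays alone, and 0 for the chamber dependence with quantile normalization. The calls over all genes moved as well, so these counts say nothing particular to the members. In other settings they ran from 7600 to 9937 for CMPs against fetal heart and from 7162 to 10244 for CMPs against adult heart. For adult against fetal heart they ran from 5633 to 8634.

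Signs turned for Kit when 1 array was left out: 1.07 for postmortem against living CMPs (range -3.60 to 1.07), -2.04 for ventricular against atrial CMPs (range -2.04 to 2.63) and 0.25 for CMPs against adult heart (range -2.09 to 0.25). Kit for ventricular against atrial CMPs also turned with normexp (-0.07). Uncalled values near 0 turned too. For postmortem against living CMPs these were Utf1 (-0.12 without an atrial array, range -0.12 to 0.31, and -0.01 with normexp) and Lin28a (-0.37 without an atrial array, range -0.37 to 0.39, -0.0 with normexp and -0.04 with the percentile over probes detected on all arrays). For ventricular against atrial CMPs they were Nanog (0.02, range -0.34 to 0.02), Utf1 (-0.16, range -0.16 to 0.26) and Lin28a (0.15, range -0.61 to 0.15). Against fetal heart, Nanog in CMPs reached 0.10 (range -0.77 to 0.10), Lin28a in CMPs 0.10 and 0.01 with an array left out (range -0.28 to 0.10) and 0.05 with quantile normalization, and Utf1 in adult heart -0.09 (range -0.09 to 1.32). The chamber dependence of Nes was -0.03 with quantile normalization and with normexp, -0.06 with the detected-probe percentile and -0.0 with the deposited table. The cause was not tested.

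Over all genes the calls for postmortem against living CMPs numbered 20, and 0 to 62 in 12 other settings; for ventricular against atrial CMPs they numbered 2, and 0 to 41. With 1 array left out they ranged from 0 to 1695 and from 0 to 1722. The detected-probe percentile moved the median log2 difference of all genes from -0.02 to -0.21 for CMPs against fetal heart and from -0.05 to -0.20 for CMPs against adult heart. The chamber term of the fit pairs postmortem with living CMPs of the same chamber; without it the same numbers of members were called in all 5 comparisons, and limma called 0 genes in each of the first 2 (1601 and 955 at an unadjusted p under 0.05). No pairing beyond this chamber term was possible because the labels give no replicate numbers to serve as a further block. Counting a probe as well above background where any of its spots is, an alternative chosen after seeing the data, changed no count of members. A slide or scan block was not run because all 7 arrays share both. Signal over background limits Pou5f1, dim on every array, and Sox2, dim on all but 1. Without Myh6-EGFP fetal heart, Sox2 counts among the members called lower in CMPs and in adult heart. It entered through the wild-type array alone, where it was bright, so those calls were set by that choice. With no filter on dim probes all 10 members were tested, and Pou5f1 and Sox2 did not pass in any comparison (adjusted p = 0.189 to 0.984).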
